A study of Bos taurus with 90 samples.

Results

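Of the 388 miRNAs with a value in any tissue, 10 from the DLK1-DIO3 imprinted cluster were followed across dairy cow tissues and diets: miR-127, miR-432, miR-379, miR-411a, miR-758, miR-543, miR-376d, miR-381, miR-409a and miR-369-3p. They were chosen by name, not by level. Small RNA came from 5 tissues of 18 mid-lactation Chinese Holstein cows, the rumen epithelium, duodenum epithelium, jejunum epithelium, liver and mammary gland, with 90 samples in all. All cows were lactating and were slaughtered for sampling, and they differed in the forage fed, which was alfalfa hay, rice straw or corn stover. Each tissue had 18 samples, 6 from each diet. No cow received a diet without one of these forages, so alfalfa hay and rice straw served as the comparison for corn stover. Ages are not in the labels, and the labels do not say which samples came from one cow.

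The DLK1-DIO3 locus is imprinted, which means that its genes are read from only one parental copy. DLK1, RTL1 and DIO3 code for proteins and are read from the paternal copy, whereas the maternal copy gives long non-coding RNAs, such as MEG3 and MEG8, and one of the largest miRNA clusters of mammals. The cluster is known from placenta, fetal tissue, brain and muscle, and it is generally less active in adult organs. A miRNA guides a silencing complex to messenger RNAs that pair with its seed, and miRNAs cut from one long transcript can still end at very different levels.

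In the RefSeq annotation of the assembly ARS-UCD2.0, 59 miRNA genes lie between DLK1 and DIO3 on chromosome 21, and all 10 members matched a gene there by name. Counting from DLK1, miR-127 and miR-432 are the 5th and 6th. Both belong to the group near RTL1, and miR-127 is antisense to the RTL1 transcript. The others follow on the far side of the MEG8 stretch. miR-379 and miR-411a are neighbours at the 9th and 10th place, then come miR-758 at the 17th, miR-543 at the 22nd, miR-376d at the 27th, miR-381 at the 33rd, miR-409a at the 52nd and miR-369-3p at the 55th. A further 29 miRNAs of the locus had values in at least 1 tissue. Mature sequences were not used here.

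Levels are given as CPM, the reads of a miRNA per 1000000 reads that mapped to any annotated miRNA, so each value is a share of the miRNA pool and not an amount per cell. In bulk tissue, fewer cells of one type and less of a miRNA per cell cannot be told apart. Mapped reads per sample ranged from 937556 to 15621501, so that 3 reads made 0.192 CPM at the greatest depth and 3.20 CPM at the lowest. The tissue labels were met by miR-192 in duodenum, jejunum and liver, by miR-122 in liver (8671.4 to 12721 CPM), by miR-205 in rumen (23016 to 52132 CPM) and by the epithelial miR-200c, which was at 509 CPM or more in every tissue but liver. miR-143, a smooth muscle miRNA, was also high in every tissue, with at least 69396 CPM, so the samples were not pure epithelium. Libraries that stood apart were the mammary gland library of rice straw replicate 3, with 429.5 CPM of the muscle miRNA miR-1 against at most 12.01 in the other mammary gland libraries, and the liver library of alfalfa hay replicate 2, with 1525 CPM of the epithelial miR-205 against at most 13. In jejunum, miRNAs without a value of their own took 281, 440 and 221 CPM of corn stover replicates 1, 2 and 6, compared with 44.9 to 72.6 CPM of the other 15 libraries. Some fits are given without these libraries as well, where named. Correlations were not run without them, and the differences of contrasts between tissues were not run without the corn stover libraries of jejunum.

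Rumen had values for 7 members, duodenum and jejunum for 8, liver for 8 and mammary gland for 9. The 7 members miR-127, miR-432, miR-379, miR-411a, miR-543, miR-381 and miR-369-3p, had values in each of the 5 tissues. miR-758, known to act on the cholesterol transporter ABCA1, had values in liver only, and miR-376d in mammary gland only. miR-409a had values in duodenum, jejunum and mammary gland. The deposited tables of a tissue hold only miRNAs that passed 1 CPM in at least 9 of its 18 samples. A missing value thus means a low or variable level, which cannot be told from a level of 0.

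The cluster was dominated by a pair of members. miR-127 and miR-411a together held between 93.5% and 98.9% of the members' reads in every sample. The members together took a median of 0.207% of all miRNA reads in rumen. This share was 0.278% in duodenum and 0.306% in jejunum, and it reached 0.681% in liver and 0.854% in mammary gland. Within a tissue miR-127 was always first by median, followed by miR-411a and miR-381, and miR-543, miR-758 and miR-376d were at the bottom. No correction was made for differences in how readily miRNAs are ligated into a library, so this order is one of reads.

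**Figure D1:**
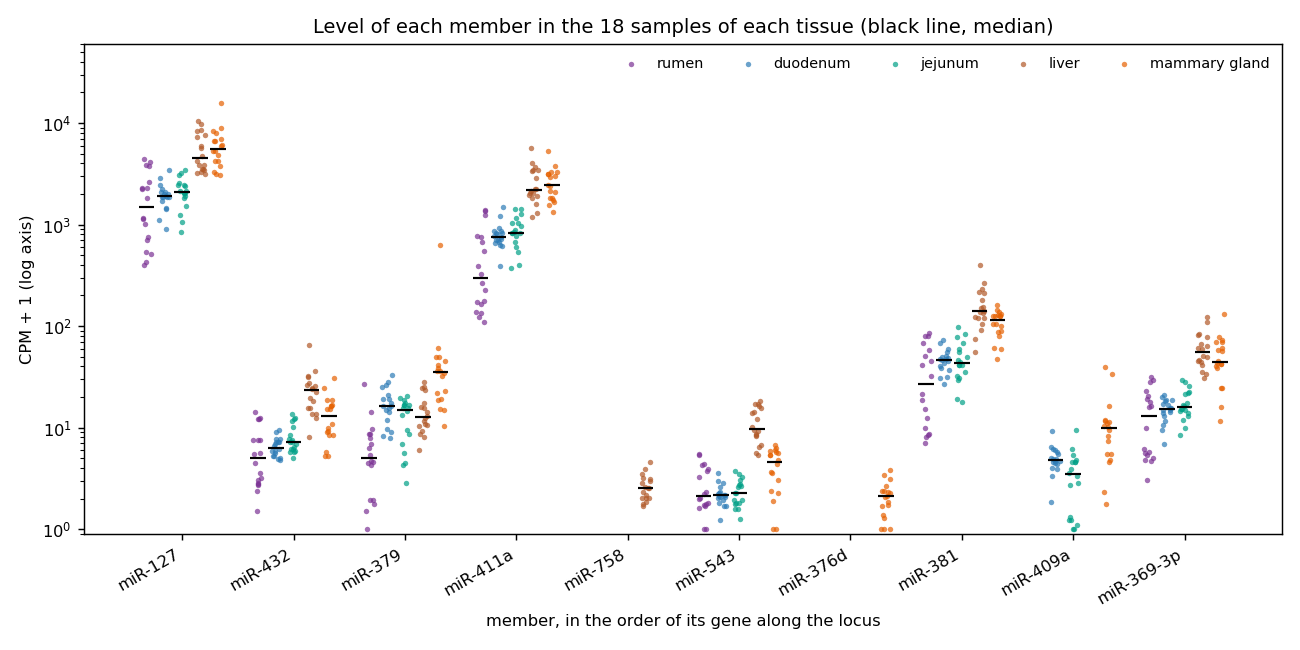
CPM + 1 of each member on a log axis, 1 point per sample, coloured by tissue, with the median as a black line; members follow the order of their genes along the locus. miR-127 and miR-411a lie above all other members in every tissue, rumen points spread widely, and 1 mammary gland sample stands at 626.1 CPM of miR-379.

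miR-127 had a lowest, median and highest value of 402, 1485 and 4434 CPM in rumen, 897, 1895 and 3478.5 CPM in duodenum, and 841, 2096 and 3411 CPM in jejunum. In liver the same values were 3137, 4472 and 10451 CPM, and in mammary gland 3095, 5589 and 15629 CPM. Liver and mammary gland thus lay higher, although their lowest samples overlapped the highest of the digestive tract. The mean log2(CPM + 1) of miR-127 was lower in duodenum than in liver by 1.45 on the log2 scale (difference -1.45, SE 0.17, limma adjusted p = 9.4e-10) and lower in duodenum than in mammary gland (difference -1.58, SE 0.17, adjusted p = 1.9e-10). Neighbours in the order did not differ beyond their spread: rumen and duodenum (difference -0.41, SE 0.29, adjusted p = 0.19, but -0.64 and adjusted p = 0.044 with trimmed-mean scaling), duodenum and jejunum (-0.10, SE 0.14, adjusted p = 0.64) and liver and mammary gland (-0.14, SE 0.19, adjusted p = 0.54).

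miR-411a, the neighbour of miR-379 in the cluster, followed the same order. Its lowest, median and highest values were 109, 296 and 1375 CPM in rumen, 387, 761 and 1482 CPM in duodenum, and 372, 832 and 1430 CPM in jejunum. Liver held 1193, 2200.5 and 5719 CPM and mammary gland 1341, 2425 and 5264 CPM. It was lower in rumen than in duodenum (-1.16, SE 0.31, adjusted p = 0.00095) and jejunum (-1.26, SE 0.31, adjusted p = 0.00052). Liver and mammary gland differed by -0.02 (SE 0.19, adjusted p = 0.93).

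miR-381 and miR-369-3p, both from the distal part of the cluster, were also highest in liver and mammary gland. The median of miR-381 was 25.8 CPM in rumen, 45.7 CPM in duodenum and 41.8 CPM in jejunum, compared with 138 CPM in liver and 114 CPM in mammary gland. It was higher in liver than in mammary gland (0.51, SE 0.20, adjusted p = 0.027). The median of miR-369-3p was 11.9 CPM in rumen, 14.1 CPM in duodenum and 14.9 CPM in jejunum, compared with 54.4 CPM in liver and 43.1 CPM in mammary gland. Its difference between liver and mammary gland missed the threshold (0.36, SE 0.24, limma adjusted p = 0.19) but passed with trimmed-mean scaling (0.49, adjusted p = 0.016) and upper-quartile scaling (0.67, adjusted p = 0.0018). Duodenum minus jejunum did not pass the threshold for either member, with 0.04 (SE 0.17, adjusted p = 0.88) for miR-381 and -0.20 (SE 0.15, adjusted p = 0.37) for miR-369-3p.

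miR-432 and miR-543 were, like miR-381, higher in liver than in mammary gland. miR-432 had a median of 22.3 CPM in liver and 12.02 CPM in mammary gland (liver minus mammary gland 0.83, SE 0.24, adjusted p = 0.0032). Its medians in the digestive tract were lower, and each of the 3 digestive tissues fell below liver by at least 1.47 on the log2 scale. miR-543 had a lowest, median and highest value of 4.41, 8.79 and 17.2 CPM in liver, above the highest value of any mammary gland sample in 14 of its 18 samples. It exceeded mammary gland by 1.53 (SE 0.24, adjusted p = 7.1e-07), and mammary gland in turn exceeded duodenum (difference duodenum minus mammary gland -0.76, SE 0.21, adjusted p = 0.0014). Many digestive tract values of miR-543 rest on few reads, with as few as 0 in rumen and 2 in duodenum and jejunum.

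miR-379, the member that opens the large distal block, had another order. Its lowest, median and highest values were 0, 4.02 and 25.7 CPM in rumen, 6.85, 15.3 and 31.8 CPM in duodenum and 1.83, 14.0 and 19.3 CPM in jejunum. Liver held 4.99, 11.6 and 26.9 CPM, and mammary gland 9.42, 34.4 and 626.1 CPM. Neither intestinal segment passed the threshold against liver (duodenum minus liver 0.25, SE 0.20, adjusted p = 0.24, and jejunum minus liver -0.30, SE 0.17, adjusted p = 0.097). Jejunum was lower than liver with trimmed-mean scaling (-0.47, limma adjusted p = 0.0074), upper-quartile scaling (-0.81, adjusted p = 3.0e-05) and edgeR (-0.42, adjusted p = 0.032). Mammary gland was higher than liver (liver minus mammary gland -1.35, SE 0.31, adjusted p = 0.00023). The mammary gland value of 626.1 CPM came from the library of rice straw replicate 3, and the next highest was 60.5 CPM. Without that library miR-379 still differed between liver and mammary gland (-1.10, SE 0.22, limma adjusted p = 3.4e-05).

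miR-409a had a median of 3.79 CPM in duodenum, 2.46 CPM in jejunum and 8.88 CPM in mammary gland. Mammary gland exceeded duodenum (duodenum minus mammary gland -0.85, SE 0.28, adjusted p = 0.0067), and duodenum exceeded jejunum (0.76, SE 0.14, adjusted p = 8.0e-05). The 18 jejunum samples were split by diet, as given below. miR-758 in liver ranged from 0.694 to 3.54 CPM, and miR-376d in mammary gland from 0 to 2.79 CPM, where it rested on at most 40 reads in a sample.

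Tissues differed in most miRNAs, and the members' counts are read against that. Every member called was lower in the digestive tract than in liver or mammary gland. Rumen was lower than liver in 7 of 7 members (84.5% of all miRNAs tested were called in either direction) and lower than mammary gland in 7 of 7 (76.2% of all). Duodenum was lower than liver in 6 of 7 (85.6% of all) and lower than mammary gland in 8 of 8 (77.5% of all). Jejunum was lower than liver in 6 of 7 (85.7% of all) and lower than mammary gland in 8 of 8 (74.4% of all). The member without a call in both comparisons with liver was miR-379, which gained the jejunum call as given above.

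Rumen was lower than duodenum in 3 of 7 members, miR-379, miR-381 and miR-411a (76.8% of all miRNAs called). With trimmed-mean or upper-quartile scaling this became 6 of 7, as miR-127, miR-432 and miR-369-3p were called too, and with edgeR 2 of 7. Rumen was lower than jejunum in 5 of 7 (75.4% of all), which became 6 with either scaling and 2, miR-379 and miR-411a, with edgeR. Duodenum and jejunum differed in 2 of 8, miR-379 and miR-409a (30.8% of all). Liver and mammary gland differed in 4 of 7, with miR-432, miR-543 and miR-381 higher in liver and miR-379 higher in mammary gland (66.7% of all), and in 5 of 7 with either scaling. The tissues came from the same 18 cows, but these fits took their samples as independent, since the labels do not tie a replicate number to a cow. The median difference of all miRNAs tested was not 0 in each fit: it was 0.43 for rumen minus liver, and became 0.15 with trimmed-mean scaling and -0.23 with upper-quartile scaling. The median of the 7 members in that comparison was -2.11, and no member call in any tissue pair changed direction under either scaling.

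The diet comparison asked whether the forage moved the members within a tissue. An F test over the 3 diets called 3 of 8 members in jejunum (23.7% of all miRNAs tested), namely miR-409a (adjusted p = 6.8e-07), miR-379 (adjusted p = 1.5e-05) and miR-127 (adjusted p = 0.042). It called no member in rumen (1.47% of all), duodenum (0% of all, 37 miRNAs with an unadjusted p under 0.05), liver (0% of all, 17 such miRNAs) or mammary gland (3.67% of all). In these 4 tissues only miR-376d in mammary gland had an unadjusted p under 0.05 by limma (adjusted p = 0.14). It entered that test through the corn stover group alone, where it was highest in the mean. edgeR on the reads recovered from the CPM values called no member there and 2 in jejunum. In jejunum, miR-409a entered the F test through the alfalfa hay and rice straw groups alone, as no corn stover sample passed 1 CPM.

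In jejunum, corn stover was compared with the mean of alfalfa hay and rice straw. Jejunum was also the tissue with the most diet differences over all miRNAs, since 35.3% of the 337 tested were called, 42 higher and 77 lower with corn stover. Of the 8 members with values, 3 fell with corn stover, none rose, and the median difference was -0.47, compared with -0.19 over all miRNAs. With trimmed-mean scaling the calls over all miRNAs became 71 higher and 39 lower, and the median over all miRNAs became -0.01. The members' share of calls, 3 of 8, was near that of all miRNAs, so the count says little about the cluster, and the sizes of the individual differences carry the result.

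miR-409a was nearly absent from the corn stover samples. Its CPM was 0.102, 0.229, 0, 0.310, 0 and 0.237 in corn stover replicates 1 to 6, which were 1, 2, 0, 2, 0 and 2 reads. With alfalfa hay it had a lowest, median and highest value of 2.34, 3.69 and 8.53 CPM, and with rice straw 1.73, 2.76 and 5.20 CPM. The groups did not overlap. The difference was -1.95 on the log2(CPM + 1) scale (SE 0.19, limma adjusted p = 1.7e-07, lower in 6 of 6 corn stover samples), the third lowest of 337. That scale understates changes of low miRNAs. In reads, 7 of 46583058 against 291 of 84784704 gave a level 22.8-fold higher in the other diets, with an exact 95% interval of 10.95 to 57.3 that covers counting error only. miR-409a entered the test through the alfalfa hay and rice straw groups alone, as no corn stover sample passed 1 CPM.

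miR-379 fell as well, at a higher level. Its CPM was 4.68, 1.83, 3.30, 7.74, 5.96 and 3.43 in corn stover replicates 1 to 6. The lowest, median and highest values were 8.53, 16.2 and 19.3 CPM with alfalfa hay and 12.3, 15.2 and 17.6 CPM with rice straw. Again no corn stover sample reached the lowest sample of the other diets. The difference was -1.63 (SE 0.20, adjusted p = 2.9e-06, lower in 6 of 6), and the mean was 4.49 ± 2.11 CPM with corn stover (SD, n = 6), compared with 15.6 ± 3.9 with alfalfa hay and 14.9 ± 1.9 with rice straw (SD, n = 6 each). miR-379 and miR-409a were the only members among the 13 miRNAs whose 6 corn stover samples all lay below the other 12, which was 3.86% of those with a jejunum value.

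Both differences stood against either control diet. Against alfalfa hay alone miR-409a differed by -2.16 and miR-379 by -1.64, and against rice straw alone by -1.74 and -1.62. Leaving out any single jejunum sample kept both calls. With corn stover replicates 1, 2 and 6 left out, miR-409a differed by -2.01 (adjusted p = 4.9e-05) and miR-379 by -1.32 (adjusted p = 0.00056).

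miR-127 was lower in the mean but not in every sample. Corn stover replicates 1 to 6 had 1538, 841, 1048, 2580, 2466 and 1235 CPM, so replicates 4 and 5 lay inside the range of the other diets. The lowest, median and highest values were 2057, 2405 and 3411 CPM with alfalfa hay and 1841, 2032 and 3080 CPM with rice straw. The difference was -0.65 (SE 0.20, adjusted p = 0.019, lower in 4 of 6). The call was lost against rice straw alone (-0.53, adjusted p = 0.085), without corn stover replicate 2 (-0.49, adjusted p = 0.064), with trimmed-mean scaling (-0.46, adjusted p = 0.051) and with corn stover replicates 1, 2 and 6 left out (-0.31, adjusted p = 0.41).

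The same corn stover samples were high for miR-411a. Replicates 4 and 5 had 1163 and 1032 CPM and the other 4 between 372 and 672 CPM, while alfalfa hay ranged from 597 to 1420 CPM and rice straw from 763 to 1430 CPM. The difference of -0.57 (SE 0.23) missed the threshold with an adjusted p of 0.054. The remaining members did not pass. miR-381 differed by -0.36 (SE 0.30, adjusted p = 0.36), and its corn stover samples were spread from 16.8 to 96.3 CPM. For miR-369-3p the interval of 2 SE on either side ran from -0.63 to 0.34 and for miR-432 from -0.46 to 0.41. Differences of the size seen for miR-379 lie outside both. For miR-543 the interval ran from -0.42 to 0.46. It averaged 1.37 CPM with the other diets, too low for a fall of that size on the log2(CPM + 1) scale.

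**Figure D2:**
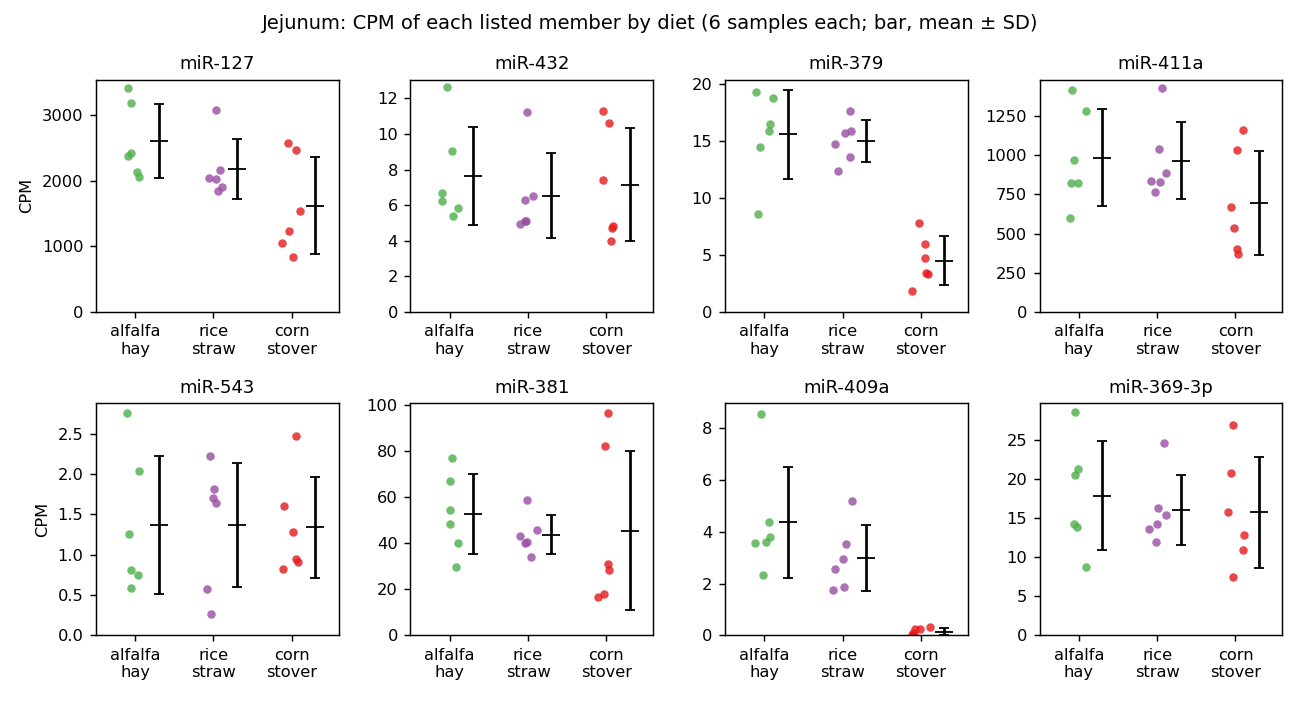
CPM of the 8 members with values in jejunum, 1 panel each with its own axis from 0, for 6 samples per diet (points) with mean ± SD (bars). For miR-379 and miR-409a every corn stover point lies below the other diets; 2 of 6 corn stover points of miR-127 and 3 of 6 of miR-411a stay within their range.

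The ratio of a member to a nearby one was also taken within samples, as the difference of their log2(CPM + 1) values. The pairs were chosen after the values had been seen, so the ratios are a description and carry no test. The log2 ratio of miR-379 to miR-411a, which is the next gene, was -6.95 ± 0.28 with corn stover (SD, n = 6) and -5.89 ± 0.38 with the other diets (SD, n = 12). In duodenum the same ratio was -5.44 ± 0.11 with corn stover and -5.67 ± 0.58 with the other diets. The log2 ratio of miR-409a to miR-369-3p, a few genes further on, was -3.77 ± 0.58 with corn stover and -1.97 ± 0.56 with the other diets in jejunum. In duodenum it was -1.55 ± 0.40 and -1.64 ± 0.32. miR-409a was at most 0.310 CPM in the jejunum corn stover samples. The added 1 CPM therefore sets much of the -3.77, which is not the ratio of the CPM values themselves.

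The other miRNAs of the locus were counted for comparison. Of 22 with values in jejunum, 3 fell with corn stover and none rose, where the listing rule again favours falls. These were miR-411c-3p (-0.73, SE 0.14, adjusted p = 0.00078), miR-494 (-0.70, SE 0.20, adjusted p = 0.013) and miR-136 (-0.59, SE 0.23, adjusted p = 0.047). Their median difference was -0.18, close to the -0.19 of all miRNAs. Among the more abundant of them, miR-380-3p differed by -0.46 (adjusted p = 0.092), miR-154c by -0.20 (adjusted p = 0.50), miR-487b by -0.17 (adjusted p = 0.57), miR-410 by -0.07 (adjusted p = 0.81) and miR-411c-5p by 0.01 (adjusted p = 0.98). The members with the largest differences, miR-379 and miR-409a, are the 9th and the 52nd gene of the locus, and the miRNAs with values between them differed by -0.73 to 0.18.

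**Figure D3:**
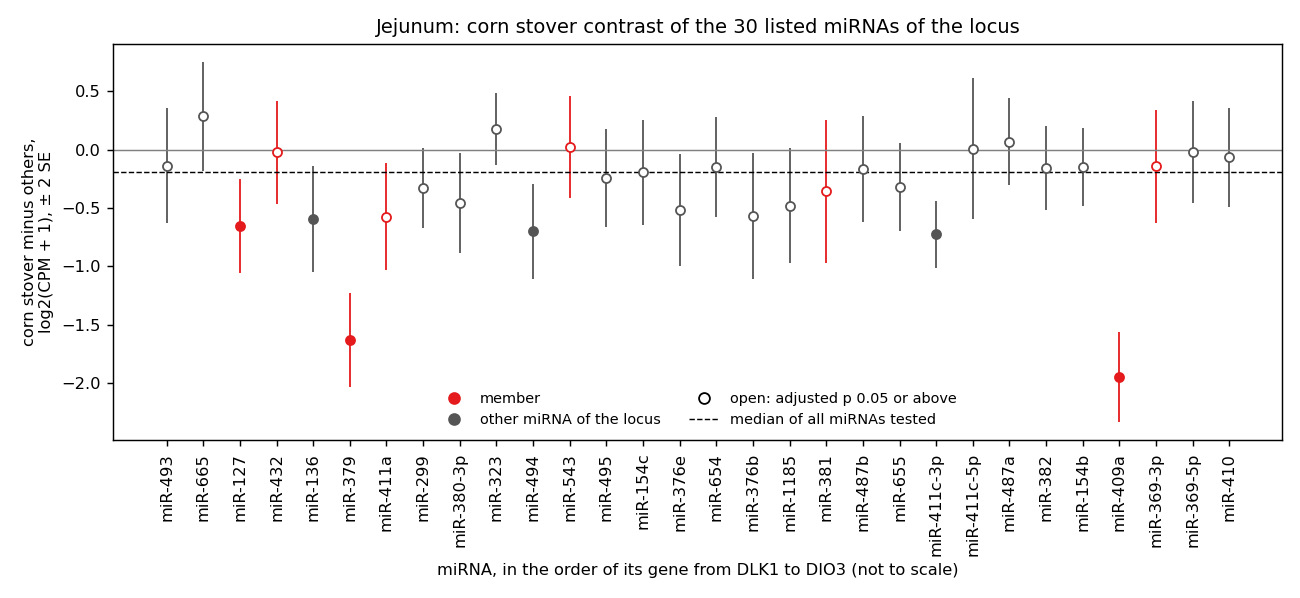
Corn stover minus the mean of the other diets in jejunum, on the log2(CPM + 1) scale with 2 SE on either side, for the 30 miRNAs of the locus with values, ordered from DLK1 to DIO3 but not to scale. Filled points passed the adjusted threshold of 0.05 and the dashed line is the median of all 337 miRNAs; miR-379 and miR-409a lie at -1.63 and -1.95, and the other 28 lie between -0.73 and 0.28.

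Markers of other cell types moved with the jejunum diets in part. Both endothelial miRNAs on the marker list, miR-126-3p and miR-126-5p, had values, and their sum ranged from 8000 to 17708 CPM with corn stover, 18498 to 28030 CPM with alfalfa hay and 19516 to 29441 CPM with rice straw. All 6 corn stover samples lay below the others here too. For the fibroblast list, 4 of 4 had values and the sums overlapped, at 5403.5 to 8194.5 CPM with corn stover and 5492 to 10138 CPM with the other diets. The intestinal epithelium list had 3 of 3, with overlapping sums in all diets, and the stratified epithelium markers miR-203 and miR-205 had no value in jejunum. Smooth muscle sums were higher with corn stover in the median, at 256990 CPM against 205040 CPM with alfalfa hay and 187100 CPM with rice straw. Their ranges overlapped, at 184450 to 296910 CPM with corn stover and 147050 to 246790 CPM with the other diets. Leukocyte markers (5 of 5 with values) had lower sums with corn stover, with a median of 21088 CPM against 29560 CPM with alfalfa hay and 28254 CPM with rice straw, and overlapping ranges (18567 to 29324 CPM with corn stover). Over the 18 jejunum samples the leukocyte sum had an r of 0.63 with miR-127 (permutation p = 0.0046, adjusted p = 0.12 over 54 relations). Its rho was 0.49 (permutation p = 0.039, adjusted p = 0.42), and its r was 0.39 without the 2 most extreme samples. The endothelial sum had an r of 0.62 (permutation p = 0.0073, adjusted p = 0.13) but a rho of 0.28. For the fibroblast sum r was 0.52 (permutation p = 0.028, adjusted p = 0.23). Red blood cell markers had a rho of 0.53 (permutation p = 0.026, adjusted p = 0.42). Neuron and endocrine markers went the other way, with an r of -0.46 (permutation p = 0.052, adjusted p = 0.23). No list passed after adjustment. Neuron and endocrine markers (5 of 5) had a median of 5249 CPM with corn stover against 3874 and 3976 CPM, also with overlap. The part of endothelial, smooth muscle, leukocyte, neuroendocrine or other cell content in the differences of miR-127, miR-379 and miR-409a was not tested.

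In the other tissues the same contrast called no member. By limma, 0% of all miRNAs were called in rumen, 0% in duodenum and 0% in liver, where 19, 27 and 21 miRNAs had an unadjusted p under 0.05 but no member did. edgeR called no miRNA in these 3 tissues either. In mammary gland 6.42% of all miRNAs were called, all 21 of them higher with corn stover, and none of 9 members. That direction depended on the scaling: the calls became 1 higher and 1 lower with trimmed-mean scaling and 1 higher and 9 lower with upper-quartile scaling, as the median over all miRNAs moved from 0.55 to 0.03 and -0.15. Of the members, miR-376d alone had an unadjusted p under 0.05. It entered the test through the corn stover group alone, where 6 of 6 samples passed 1 CPM. With alfalfa hay 3 of 6 did and with rice straw 1 of 6, so its p is no support for a difference. Its 6 corn stover samples ranged from 1.26 to 2.11 CPM, and it differed by 0.56 (SE 0.27, adjusted p = 0.14). The ranges overlapped, at 0 to 2.79 CPM with alfalfa hay and 0 to 1.08 CPM with rice straw. With upper-quartile scaling miR-127 was called in mammary gland, and edgeR called no miRNA there.

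**Figure D4:**
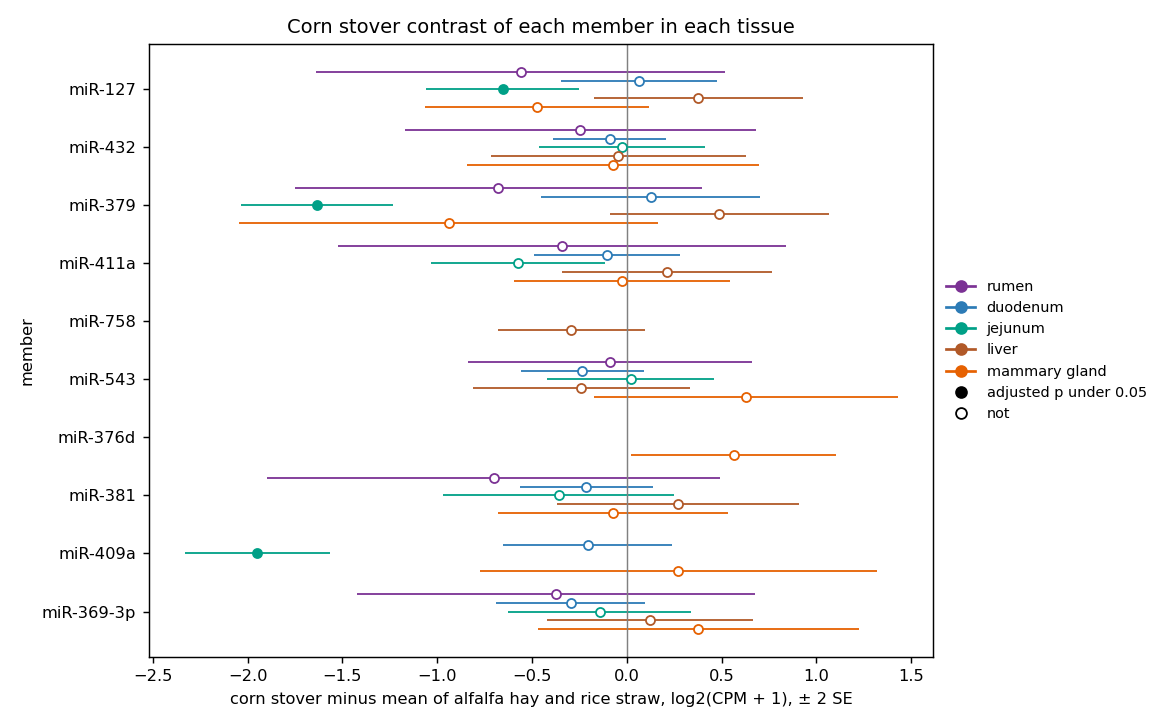
Corn stover minus the mean of alfalfa hay and rice straw for each member and tissue, on the log2(CPM + 1) scale with 2 SE on either side; filled points passed the adjusted threshold of 0.05. Only jejunum has filled points, at -0.65 for miR-127, -1.63 for miR-379 and -1.95 for miR-409a, and the rumen and mammary gland intervals are wide.

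Whether jejunum differed from another tissue in its response was tested as a difference of contrasts. These tests all use the same jejunum samples and are not independent of each other. Against duodenum, the neighbouring segment, the contrast was lower in jejunum for 2 of 8 members (21.5% of all miRNAs called), miR-409a (-1.74, SE 0.30, adjusted p = 4.9e-05) and miR-379 (-1.76, SE 0.36, adjusted p = 0.00045). In duodenum, miR-379 averaged 17.0 CPM with alfalfa hay, 14.7 with rice straw and 17.4 with corn stover, and miR-409a averaged 3.55, 4.74 and 3.65 CPM. In jejunum the same means were 15.6, 14.9 and 4.49 CPM for miR-379 and 4.36, 2.97 and 0.146 CPM for miR-409a. The tissue difference given above for these 2 members thus includes the low corn stover samples of jejunum.

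Against liver, the contrast was lower in jejunum for 2 of 7 members (21.2% of all), miR-379 (-2.12, SE 0.36, adjusted p = 3.4e-05) and miR-127 (-1.03, SE 0.36, adjusted p = 0.034). Against mammary gland it was lower for 1 of 8 (27.9% of all), miR-409a (-2.22, SE 0.58, adjusted p = 0.0080), and this call was lost with trimmed-mean or upper-quartile scaling and with a pseudocount of 5 CPM. Without the mammary gland library of rice straw replicate 3, miR-379 was called there too (-1.07, SE 0.40, adjusted p = 0.033). Against rumen no member of 7 was called (8.31% of all). miR-379 differed between jejunum and rumen by -0.95 (SE 0.60, adjusted p = 0.32), and no member had an unadjusted p under 0.05 in that comparison, nor was any called by edgeR.

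Co-variation between members was measured within each tissue as the rank correlation (Spearman rho) of log2(CPM + 1) over 18 samples, for 141 pairs in all. Pairs of one tissue share libraries and members, so they are not independent. In rumen the members rose and fell together. All 21 pairs had a rho between 0.78 and 0.93, with a median of 0.87, compared with a median of 0.04 over all 57630 pairs of miRNAs, of which 0.161% reached the members' median. The levels spanned a wide range: miR-127 differed 10.2-fold between the lowest and the highest rice straw sample, and miR-411a 12.6-fold. After the diet means were removed, the median rho was 0.88.

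The pairs of miR-127 in rumen show this for single members. Its rho was 0.92 with miR-381 (Pearson r 0.93, permutation p = 1e-05 for both, the smallest possible, r 0.90 without the 2 most extreme samples) and 0.90 with miR-411a (r 0.90, permutation p = 1e-05 for both, r 0.88 without the 2). The lowest was 0.81 with miR-432 (permutation p = 6e-05, r 0.86 with permutation p = 3e-05, r 0.82 without the 2). Within single diets the r of miR-127 and miR-381 was 0.74 in alfalfa hay, 0.99 in rice straw and 0.95 in corn stover, with 6 samples each.

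In liver the median rho of 28 pairs was 0.72 (all miRNAs 0.04), with 1.52% of all pairs reaching it. miR-411a and miR-381 were the closest (rho 0.93, r 0.96, permutation p = 1e-05 for both, r 0.94 without the 2 most extreme samples), and miR-758 was the least tied, with a median rho of 0.54 to the others. miR-758 had between 2 and 16 reads in each sample. In jejunum the median rho of 28 pairs was 0.57 (all miRNAs 0.14), with 8.91% of all pairs reaching it, and in duodenum 0.48 (all miRNAs 0.17), with 14.7%. In mammary gland the median of 36 pairs was 0.40, compared with 0.33 over all miRNAs, and 40.9% of all pairs reached it. With the diet means removed the members' median there was 0.56, with 24 of 36 pairs under 0.05, and the 561 pairs of all locus miRNAs had a median of 0.57 without that step. The median over all miRNAs was not taken with diet means removed, so the 0.56 cannot be set against 0.33. Pairs with a permutation p under 0.05 numbered 21 of 21 in rumen and 24 of 28 in liver, against 15 of 28 in duodenum, 18 of 28 in jejunum and 15 of 36 in mammary gland. The share of all miRNA pairs under 0.05 was not computed. These counts therefore do not show whether the members passed more often than other miRNAs.

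In jejunum, miR-411a had a rho of 0.81 with miR-381 (r 0.86, permutation p = 4e-05 and 1e-05, r 0.74 without the 2 most extreme samples), and miR-127 had 0.81 with miR-432 (r 0.75, permutation p = 7e-05 and 0.00023, r 0.74 without the 2). miR-379 and miR-409a were low together in corn stover samples and high together in the others, which form separate clusters, so no pooled coefficient is given for them. With the diet means removed their rho was -0.12 (permutation p = 0.64). miR-379 and miR-411a had 0.75 after the diet means were removed (permutation p = 0.00051). miR-409a had a median rho of 0.23 with the other members after that step, the lowest of the 8. Its corn stover samples held 0 to 2 reads each, so this value and the -0.12 rest partly on counting noise. Within rice straw its r with other members ran from 0.13 (miR-379) to 0.88 (miR-381). Within alfalfa hay the range was -0.70 (miR-379) to 0.72 (miR-127).

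**Figure D5:**
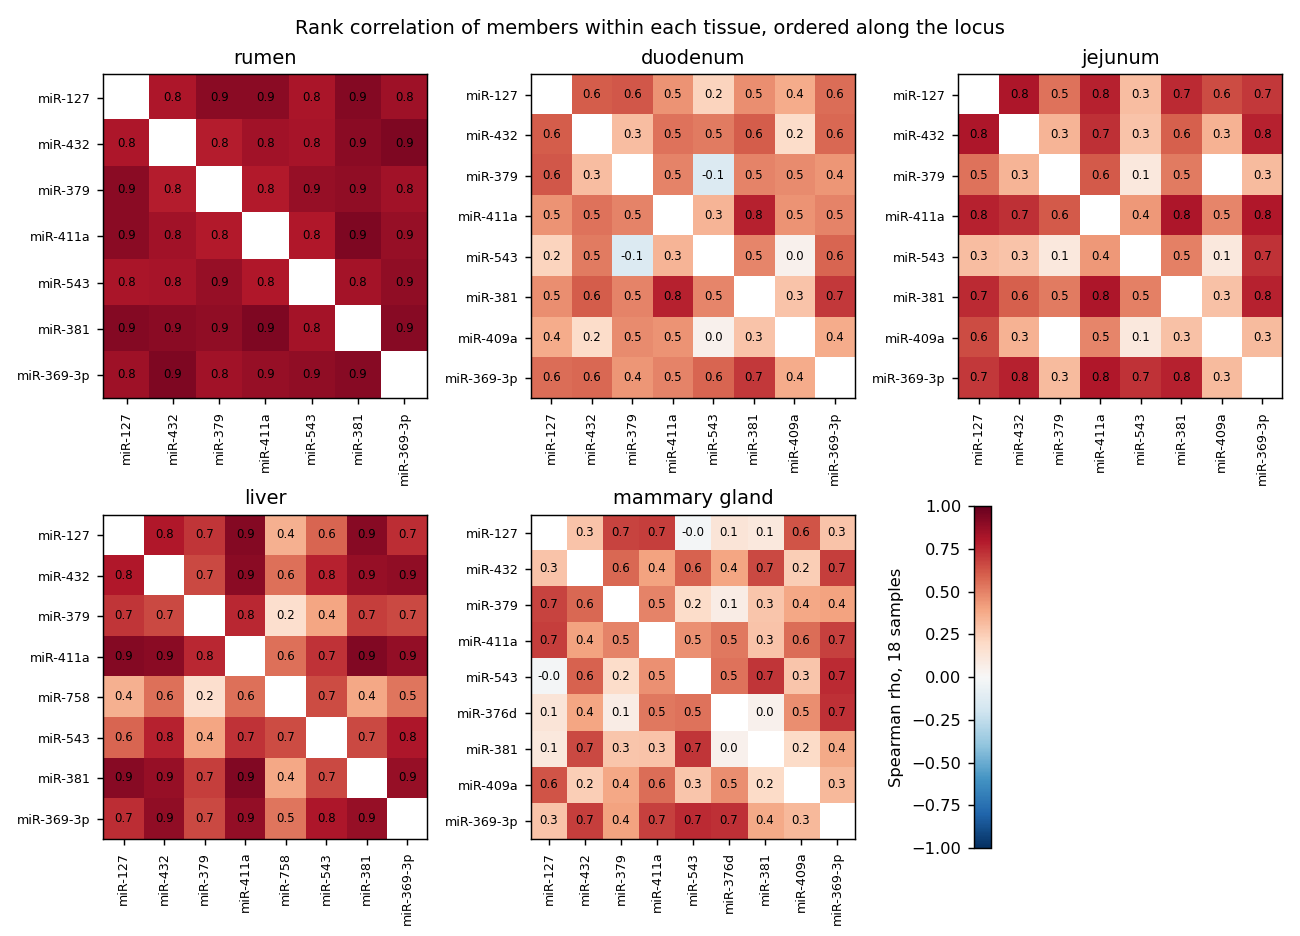
Spearman rho between members over the 18 samples of each tissue, written in each cell to 1 decimal and coloured from -1 (blue) to 1 (red), members ordered along the locus. Every rumen cell lies between 0.78 and 0.93, whereas mammary gland cells run from -0.02 to 0.75; the jejunum cell of miR-379 and miR-409a is left blank because their diet groups do not overlap.

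Over all miRNAs, the 5 most like miR-127 were mostly from the locus in every tissue but duodenum. Between 327 miRNAs in mammary gland, 33 of them from the locus, and 339 in rumen, 24 of them from the locus, were compared with it. Among the 5 with the highest rho to miR-127, those from the locus were 5 each in jejunum, liver and mammary gland, 4 in rumen and 2 in duodenum. In rumen these were miR-381, miR-379, miR-411a and miR-154c, beside miR-204 (rho 0.90) from outside the locus. In duodenum they were miR-655 and miR-495, beside miR-7, miR-24-3p and miR-99a-5p. In jejunum they were miR-1185 (0.87), miR-380-3p, miR-432, miR-376b and miR-493, and in liver miR-411a (0.92), miR-381, miR-410, miR-495 and miR-376b. In mammary gland they were miR-299 (0.81), miR-411c-3p, miR-411a, miR-379 and miR-409a.

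Of the summed cell type markers, smooth muscle (miR-143 and miR-145, 2 of 2 with values) had the highest rho with miR-127 in rumen, 0.72 (permutation p = 0.00097, r 0.69 with permutation p = 0.0016, r 0.65 without the 2 most extreme samples). Over the 54 marker relations computed in the 5 tissues, the Benjamini-Hochberg adjusted p of that rho was 0.052, so it missed the threshold. The smooth muscle sum in rumen ranged from 118230 to 243920 CPM. The fibroblast list, 4 of 4 with values, had a rho of 0.47 there (permutation p = 0.051, adjusted p = 0.42). The part of muscle or connective tissue in the shared rise and fall of the members was not tested.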

How the data were processed

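Total RNA was made into small RNA libraries by the authors, who filtered reads with CASAVA 1.8, trimmed them with sRNAbench and aligned them to bovine precursors of miRBase. Mismatches and several mappings per read were allowed, so reads of close relatives (the miR-376, miR-409 and miR-411 families) may be shared. The deposited values are CPM per sample, although the study calls the files raw counts. Each value was a whole multiple of 1 step within 0.05 reads (100% of values in every sample), which gave the reads. No values were imputed and no samples were identical.

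Members, lists and tests were chosen with earlier results of these data known. The miRNAs named are the members, at most 10 others of the locus (mean of at least 10 CPM in a tissue, or past the jejunum contrast) and the 5 most like miR-127 per tissue. Fits used limma 3.58.1 in R 4.3.3 on log2(CPM + 1) with an intensity trend, keeping miRNAs that exceeded 1 CPM in over 50% of a group, and p-values were adjusted over all miRNAs by Benjamini-Hochberg (threshold 0.05). edgeR 4.0.16 was run on recovered reads. Diet fits held the 18 samples of 1 tissue, and tissue or interaction fits those of 2. Leaving out named libraries and the ratios of members were chosen after seeing the data. Correlations used 100000 permutations, and their p-values are unadjusted, though adjustment had been planned, because the members were chosen with results known. With diet means removed, the permutations still treated the 18 samples as free, which can make those p-values too small. On simulated reads the jejunum contrast recovered 52 of 60 miRNAs changed 2-fold, with 2 false calls. The difference of contrasts between jejunum and duodenum recovered 41 of 60, with 1 false call. Each simulated miRNA was drawn independently, whereas the members varied together. Replicates are samples of one label, and p-values measure the spread between them.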

Additional observations from a re-analysis of the deposited data

Results flagged for a closer look

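In 14 of the 120 groups of 6 samples examined, 1 sample lay apart from the other 5 in the CPM of a member. A chance rate of about 1 in 20 groups assumes independent groups and symmetric values. Members shared libraries and CPM was not on the log scale, so the count cannot be read against that rate. All 14 were high. In jejunum, rice straw replicate 4 had 3080 CPM of miR-127 (next 2161), 11.2 of miR-432 (next 6.53) and 24.7 of miR-369-3p (next 16.3). Alfalfa hay replicate 3 in jejunum had 8.53 CPM of miR-409a (next 4.37), in the shallowest jejunum library. In liver, rice straw replicate 2 had 10451 CPM of miR-127 (next 5912), and alfalfa hay replicate 6 had 23.3 CPM of miR-379 (next 11.3) and 4041 of miR-411a (next 2250). In rumen, alfalfa hay replicate 1 had 25.7 CPM of miR-379 (next 8.79) and alfalfa hay replicate 3 had 1253 CPM of miR-411a (next 388). In duodenum, alfalfa hay replicate 5 had 1221 CPM of miR-411a (next 832).

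In mammary gland, rice straw replicate 3 had 626.1 CPM of miR-379 (next 48.6) and 131 CPM of miR-369-3p (next 56.0), and it was also the highest of the 18 for miR-411a and miR-432. Rice straw replicate 2 had 38.2 CPM of miR-409a (next 10.4) and corn stover replicate 5 had 32.4 (next 10.1).

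The corn stover contrast of 3 members differed between jejunum and another tissue by a test of the difference itself, in log2(CPM + 1). Jejunum minus duodenum was -1.76 for miR-379 and -1.74 for miR-409a. Jejunum minus liver was -2.12 for miR-379 and -1.03 for miR-127. Jejunum minus mammary gland was -2.22 for miR-409a.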

How the results depend on the processing

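No member result reversed its direction where it passed the threshold. The side with most calls over all miRNAs did change with scaling in the mammary gland and jejunum corn stover contrasts, as given above. Among counts recomputed under alternatives, 195 stayed within 1.5 times the reported count and 11 did not, and among single members 977 values kept their side of the threshold, 18 lost it and 23 gained it. In the jejunum corn stover contrast, miR-379 and miR-409a passed under every alternative run. All miRNAs called there were 119, and 74 against alfalfa hay alone and 41 with corn stover replicates 1, 2 and 6 left out, an alternative chosen after seeing the data. Leaving out 1 jejunum sample gave 81 to 143, and 2 to 4 members. miR-411a was called with upper-quartile scaling, with the replicate block and without alfalfa hay replicate 1, corn stover replicate 4 or corn stover replicate 5 (adjusted p between 0.015 and 0.038). Members called for jejunum minus liver contrasts went from 2 to 1 with edgeR, and for jejunum minus mammary gland contrasts from 1 to 0 with a pseudocount of 5 CPM, trimmed-mean or upper-quartile scaling and to 2 without mammary gland rice straw replicate 3. Rumen minus duodenum went from 3 to 6 members with either scaling and rumen minus jejunum from 5 to 2 with edgeR. Member pairs in mammary gland with p under 0.05 went from 15 to 24 with diet means removed, with no such count for all miRNA pairs. The causes were not tested. Leaving out liver alfalfa hay replicate 2 changed no member call.

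The labels do not say that a replicate number is a cow, and not every same-numbered pair deviated together, so numbers were not taken as pairs. Same-numbered duodenum and jejunum samples correlated with a median of 0.34, over 0.1 in 14 of 18 and best with their own number in 11 of 18, and the other tissue pairs had medians between -0.03 and 0.13. With the replicate block, 103 miRNAs and 4 members were called in the jejunum contrast. The duodenum and jejunum numbers are a hint from the data that some may be shared cows. Low members are limited by depth, since 3 reads were worth up to 3.20 CPM.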

Other observations

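The 13 jejunum miRNAs whose corn stover samples all lay below the other 12, named after their values were seen, included 11 from outside the members. These were miR-1271 (mean 9.32 CPM with corn stover and 52.3 CPM with the other diets), miR-99b (674 and 2059), miR-100 (293 and 856), miR-29d (2.51 and 8.23), miR-96 (3.98 and 12.03), miR-99a-5p (195 and 448), miR-1 (7.52 and 18.01), miR-425-3p (28.0 and 61.5), miR-126-5p (9898 and 18540), miR-2285k (82.9 and 146) and miR-30a-5p (7933 and 12450). None of these 11 lies between DLK1 and DIO3 in the annotation. Among the 13, by size of the difference, miR-409a and miR-379 came after miR-1271 (-2.31, limma adjusted p = 2.0e-08). The 7 miRNAs whose corn stover samples all lay above the others were led by miR-423-3p (983 and 330.5 CPM) and miR-92a (11870 and 4260). The listing rule favours falls over rises, as given above, so the 13 and the 7 cannot be set against each other.

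Among the 20 miRNAs with the highest rho to miR-127, 20 were from the locus in liver, where 34 of the 329 miRNAs compared were. In rumen 19 were (24 of 339 compared) and in jejunum 17 (29 of 336). In duodenum 9 were (29 of 337) and in mammary gland 7 (33 of 327).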
